A study of Mus musculus with 16 samples.

Results

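The effect of lipopolysaccharide (LPS) was measured on mature miRNAs of mouse bone marrow dendritic cells by small RNA sequencing, pooled over cells grown with and without quercetin. All 8 libraries with LPS were compared with all 8 without it, which takes in all 16 libraries of the series, and quercetin entered the fit as a covariate. The cells came from 4 male C57BL/6 mice, labelled WT (wild type), of 8 weeks (mice 1 to 3) or 7 weeks (mouse 4). The label of LPS replicate 2 does not state the sex. Red cells were removed from the marrow with ACK buffer before culture. The control group had no stimulation, the LPS group had 1 µg/mL LPS for 6 h on day 8, the quercetin group had 25 µM of this plant flavonol on days 5 and 7, and the last group had both, quercetin first. Each mouse gave 1 library to each group, so the 8 libraries on each side are 4 mice cultured under both quercetin states and not 8 animals. Cultures of this kind can hold immature and mature cells together, and in RNA from a whole culture fewer cells of a type and less RNA per cell cannot be told apart.

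LPS is a cell wall component of Gram-negative bacteria that signals through TLR4 to NF-kB and interferon pathways. A miRNA gene is transcribed as a long primary transcript, from which a hairpin is cut; the hairpin is then cut into a duplex whose arms are called 5p and 3p. One arm is usually kept in Argonaute, where it pairs with target mRNAs through its seed, and the other (the passenger arm) is usually broken down. miR-155, miR-146a, miR-132 and miR-212 are known as miRNAs induced by TLR4 in myeloid cells.

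In the pooled test 7 of 568 miRNAs passed an adjusted p of 0.05 (1.23%), and 27 had an unadjusted p under 0.05 (edgeR's quasi-likelihood test with Benjamini-Hochberg adjustment). With LPS 5 were higher (0.88% of those tested): miR-155-3p, miR-221-5p, miR-222-5p, miR-222-3p and miR-455-5p. Lower were 2 (0.352%), miR-27a-5p and miR-138-1-3p. Of these 7, 6 are the less abundant arm of their hairpin in these cells. Over the 150 hairpins with both arms tested, the median absolute log2 difference was 0.21 for the less abundant arms and 0.14 for the abundant arms. Both medians lie below the median standard error of 0.248, and less abundant arms have fewer reads. The larger median therefore does not show a response of less abundant arms to LPS. For miR-138-1-3p the other arm, miR-138-5p, is made from loci on chromosomes 8 and 9, so its level is not from 1 hairpin. With all 4 libraries of a mouse left out 3 or 4 miRNAs passed, miR-155-3p and miR-222-5p each time. Without mouse 1 they included miR-7086-5p, which is not among the 568 and met the filter of that fit only through the LPS group, where it is high. A fit with no quercetin covariate called 0 (19 with an unadjusted p under 0.05).

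No RefSeq sequence was found for miR-222-5p, so it is only named. The mature sequences of the other arms that moved are listed below. They are from RefSeq (GRCm38.p6), 5′ to 3′, with the seed (bases 2 to 8) in capitals, and the other arm of miR-155, miR-221 and miR-27a is given for comparison.
miR-155-3p: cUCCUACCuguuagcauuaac
miR-155-5p: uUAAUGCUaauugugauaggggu
miR-221-5p: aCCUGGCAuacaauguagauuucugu
miR-221-3p: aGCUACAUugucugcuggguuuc
miR-222-3p: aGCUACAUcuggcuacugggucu
miR-27a-5p: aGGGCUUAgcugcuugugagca
miR-27a-3p: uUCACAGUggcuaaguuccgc
miR-455-5p: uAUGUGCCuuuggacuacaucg
miR-138-1-3p: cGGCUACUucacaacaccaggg

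miR-222-3p, which rose, and miR-221-3p, which did not pass the test, carry the same seed GCUACAU and are the only miRNAs with it among the 458 of 568 tested that matched a RefSeq sequence. The seed of the miR-155 arm that rose, UCCUACC, is shared with no other tested miRNA of known sequence and differs from that of the abundant arm, UAAUGCU. The Mir155 hairpin lies at chr16:84714140-84714204 on the plus strand, in an exon of the noncoding host gene Mir155hg (GENCODE annotation). It is printed with miR-155-3p in capitals, to show the position of the arm that rose.
Mir155: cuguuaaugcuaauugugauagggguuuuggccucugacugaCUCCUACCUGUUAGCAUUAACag

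The Mir27a hairpin lies at chr8:84208672-84208758 on the plus strand, 79 bases from Mir23a and 56 from Mir24-2. Its arm that fell, miR-27a-5p, is in capitals.
Mir27a: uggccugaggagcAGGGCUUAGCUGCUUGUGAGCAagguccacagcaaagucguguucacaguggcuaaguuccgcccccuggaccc

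miR-155 is the miRNA best known for its induction by TLR ligands in macrophages and dendritic cells, where its 5p arm represses the signalling inhibitors SHIP1 and SOCS1. Levels are in CPM (TMM-scaled counts relative to library size) unless stated. miR-155-3p stood at 154, 214, 92.8 and 94.0 CPM in controls 1 to 4 and at 606, 797, 389 and 431 CPM in LPS libraries 1 to 4. In quercetin libraries 1 to 4 it stood at 48.1, 38.3, 55.6 and 45.5 CPM, and in quercetin plus LPS libraries 1 to 4 at 334, 131, 186 and 274 CPM. Within each quercetin state every library with LPS lay above every library without it. The quercetin plus LPS libraries 2 and 3 lay below control 2, so the 8 and 8 overlapped when the state was ignored. The pooled difference was 2.15 ± 0.24 on the log2 scale (SE), a 4.44-fold rise (edgeR adjusted p = 2.17e-05), and it was 2.00 without and 2.30 with quercetin.

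The abundant arm, miR-155-5p, averaged 39973 CPM, 164 times the level of miR-155-3p as sequenced. It stood at 22196, 43209, 49322 and 29923 CPM in the controls and at 50719, 50683, 31809 and 66439 CPM in the LPS libraries. In the quercetin libraries it stood at 28807, 33228, 37834 and 31790 CPM, and in those with quercetin plus LPS at 36701, 27521, 31130 and 68265 CPM. The groups overlapped in both states, 5 of 8 mouse pairs were higher with LPS, and both LPS-treated libraries of mouse 4 were the highest. The pooled difference was 0.39 ± 0.21, with a 95% interval from -0.05 to 0.83, and did not pass (edgeR adjusted p = 0.960). The interval excludes a rise of the size seen for the 3p arm.

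The genes of miR-221 and miR-222 lie 504 bases apart on the minus strand of chromosome X; the mature 3p arms are known to repress Kit and the cell cycle inhibitor p27. From this pair of hairpins 3 of 4 arms rose. miR-222-5p stood at 135, 175, 238 and 186 CPM in the controls against 372, 359, 392 and 510 CPM with LPS. With quercetin it stood at 59.4, 57.4, 59.0 and 56.9 CPM, against 195, 137, 170 and 183 CPM with quercetin plus LPS. The groups were apart in both states, and the 4 quercetin libraries were nearly equal. Its pooled difference was 1.36 ± 0.15, a 2.56-fold rise, with the smallest standard error of the 7 (edgeR adjusted p = 2.17e-05).

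The abundant arm miR-222-3p is number 15 by level among the 568. Controls stood at 10325, 12825, 13505 and 13560 CPM and LPS libraries at 26770, 21732, 38695 and 23226 CPM. Quercetin libraries stood at 7455, 4888, 6435 and 5520 CPM and those with quercetin plus LPS at 13355, 11529, 14276 and 5655 CPM. The groups were apart without quercetin, whereas quercetin plus LPS replicate 4 lay among the quercetin libraries. Pooled, miR-222-3p differed by 1.01 ± 0.18, a 2.01-fold rise (edgeR adjusted p = 0.00682). It is the only one of the 7 that is the abundant arm of its hairpin, and it did not pass in either state alone (adjusted p = 0.0730 without and 0.347 with quercetin). The pooled call was lost without mouse 1, 2 or 3 (edgeR adjusted p = 0.0700, 0.0590 and 0.0534) and with library size scaling (0.0543).

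miR-221-5p stood at 381, 491, 287 and 235 CPM in the controls and at 945, 1604, 439 and 719 CPM with LPS. With quercetin it stood at 182, 101, 131 and 107 CPM, and with quercetin plus LPS at 567, 178, 235 and 551 CPM. The groups overlapped by 1 library in each state, and all 8 mouse pairs were higher with LPS, which selection by the pooled test favours. The pooled difference was 1.48 ± 0.29, a 2.79-fold rise (edgeR adjusted p = 0.0135). Without mouse 1 or mouse 4 the call was lost (edgeR adjusted p = 0.110 and 0.181). This rise rested in part on 5 libraries that stand apart from their groups (described below with the library checks): without them it was 1.05 with an adjusted p of 0.338. The abundant arm miR-221-3p ran from 4961 to 11251 CPM over all libraries, differed by 0.29 ± 0.14 (95% interval from -0.00 to 0.58) and did not pass (adjusted p = 0.960).

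**Figure D1:**
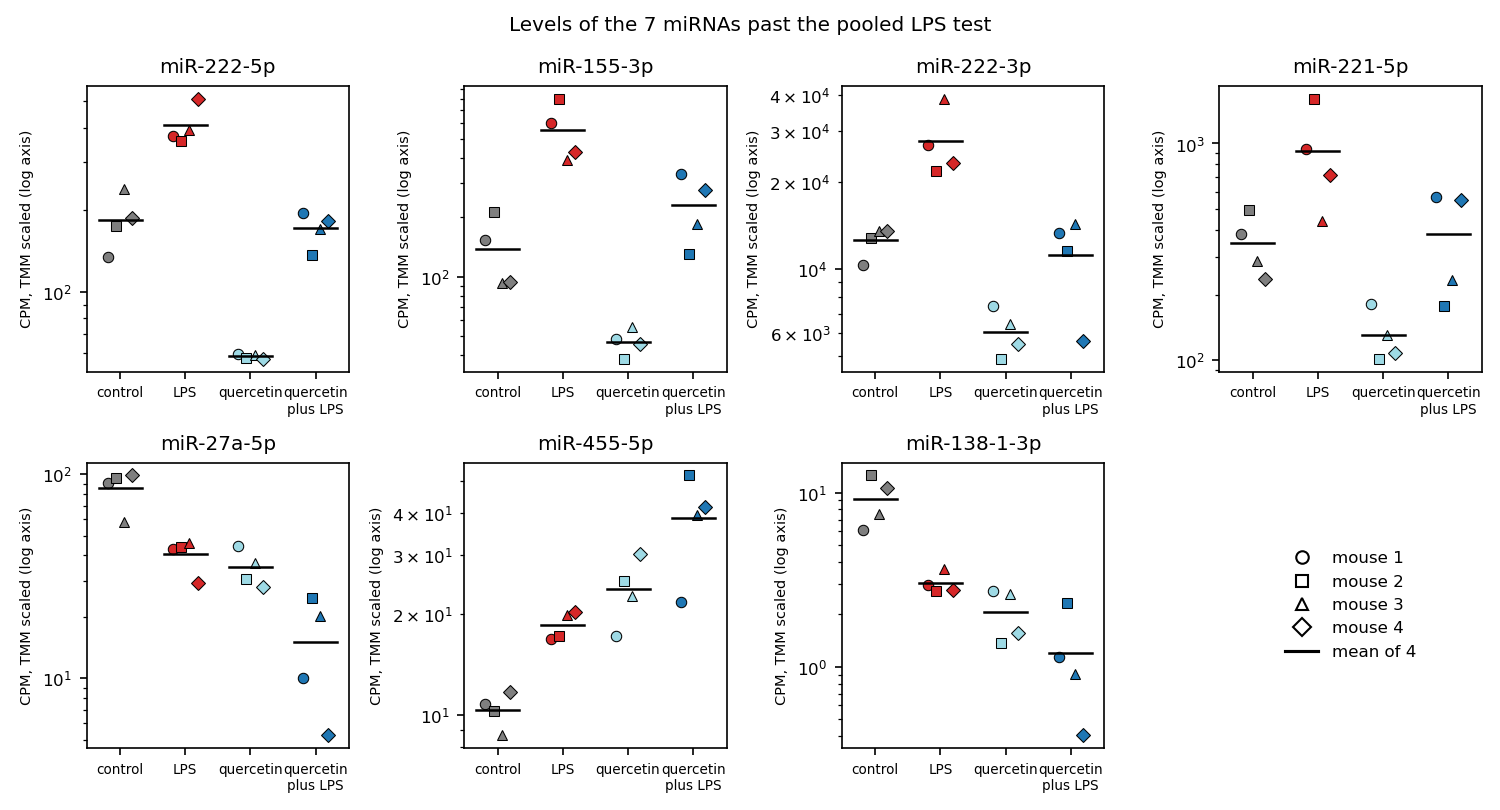
Level of each of the 7 miRNAs past the pooled test, in TMM-scaled CPM on a log axis, for the 4 groups; a point is 1 library, its shape the mouse, and the line the mean of 4. Within each quercetin state the miR-155-3p, miR-222-5p and miR-27a-5p points with and without LPS do not overlap, while quercetin plus LPS mouse 4 (5655) sits among the quercetin libraries for miR-222-3p.

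miR-27a belongs to a cluster with miR-23a and miR-24-2; its abundant 3p arm has been described as a regulator of macrophage cytokines. The less abundant arm, miR-27a-5p, stood at 90.5, 96.3, 58.3 and 98.5 CPM in the controls and at 43.1, 44.0, 45.9 and 29.3 CPM with LPS. Quercetin libraries stood at 44.4, 30.5, 36.8 and 28.0 CPM, and with quercetin plus LPS at 9.99, 24.6, 20.2 and 5.25 CPM. It was lower with LPS in 8 of 8 mouse pairs, and the groups were apart in both states. The pooled difference was -1.15 ± 0.25, or 0.451 times the level without LPS (edgeR adjusted p = 0.0292). The call is near the threshold, since it was lost in 10 of the 16 fits that left out 1 library, where the adjusted p reached 0.0992. Those libraries were controls 1 and 2, LPS 1 to 4, quercetin 1 to 3 and quercetin plus LPS 1. The 3p arm, at a mean of 3709 CPM, differed by 0.04 ± 0.13.

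Among the 11 tested arms of the miR-23, miR-27 and miR-24 hairpins 1 fell (miR-27a-5p, against 0.352% of all miRNAs tested). Of the 11, 0 rose (against 0.88%), and the median difference was -0.14, against -0.02 over all miRNAs. These arms were chosen as a list with earlier results of these data known, so the counts are not independent support. The neighbouring passenger arm miR-23a-5p was lower in all 8 mouse pairs and apart in both states, from 1.44 to 1.82 CPM in the controls and 0.690 to 1.43 CPM with LPS. With quercetin it ran from 0.794 to 1.15 CPM, and with quercetin plus LPS from 0.130 to 0.538 CPM. Its difference of -0.94 ± 0.26 did not pass over all miRNAs (edgeR adjusted p = 0.128), and at these levels few reads carry it. miR-23b-5p, of the paralogous cluster, differed by -1.21 ± 0.49 (adjusted p = 0.623), while miR-23a-3p and miR-24-3p differed by 0.00 and -0.14.

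miR-455 lies in an intron of the collagen gene Col27a1 and is known from cartilage. miR-455-5p stood at 10.8, 10.3, 8.67 and 11.7 CPM in the controls and at 16.9, 17.2, 19.9 and 20.2 CPM with LPS. With quercetin it stood at 17.2, 25.0, 22.6 and 30.3 CPM, and with quercetin plus LPS at 21.7, 51.9, 39.4 and 41.8 CPM. It was higher with LPS in all 8 mouse pairs, with overlap only in the quercetin state, through replicate 1. Over both states it differed by 0.77 ± 0.17, a 1.71-fold rise and the smallest of the 7 (edgeR adjusted p = 0.0294). This call was lost with upper quartile scaling (adjusted p = 0.0656), with library size scaling (0.138), with no filter on low counts (0.138) and without mouse 2, 3 or 4 (0.350, 0.452 and 0.180). Its 3p arm differed by 0.43 ± 0.42 and was higher in 4 of 8 pairs.

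miR-138-1-3p is the lowest of the 7, with 3 to 122 counts per library. It stood at 6.11, 12.5, 7.54 and 10.6 CPM in the controls and at 2.95, 2.73, 3.65 and 2.76 CPM with LPS. Quercetin libraries stood at 2.71, 1.36, 2.61 and 1.56 CPM, and with quercetin plus LPS at 1.13, 2.32, 0.911 and 0.404 CPM. The groups were apart without quercetin and overlapped with it, and 7 of 8 pairs were lower. Pooled, it differed by -1.23 ± 0.29 with an edgeR adjusted p of 0.0479, just inside the threshold. With the mouse as a block it was -1.26 with an adjusted p of 0.0689, and the call was lost in 15 of the 16 fits that left out 1 library, all but the one without quercetin plus LPS 2.

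The arms of a hairpin were then compared within each library, which removes the scaling between libraries. The change with LPS in the log2 ratio of 5p to 3p counts passed for 2 of 150 hairpins (1.33%), miR-155 and miR-27a, and 9 had an unadjusted p under 0.05 (limma with Benjamini-Hochberg adjustment). As a share of both arms, miR-155-3p made up 0.690, 0.492, 0.188 and 0.313% in the controls and 1.18, 1.55, 1.21 and 0.644% with LPS. With quercetin it made up 0.167, 0.115, 0.147 and 0.143%, and with quercetin plus LPS 0.901, 0.474, 0.594 and 0.400%. The miR-155-3p share overlapped between control and LPS by 1 library on each side, control 1 and LPS 4, and did not overlap with quercetin. The ratio of 5p to 3p changed by -1.77 ± 0.28 on the log2 scale (limma adjusted p = 0.00135).

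miR-27a-5p made up 1.85, 1.70, 1.47 and 2.66% of its hairpin's counts in the controls and 0.976, 0.773, 1.34 and 0.636% with LPS. With quercetin it made up 1.46, 1.07, 1.39 and 0.923%, and with quercetin plus LPS 0.314, 0.736, 0.722 and 0.187%. The groups were apart in both states. The miR-27a ratio changed by -1.29 ± 0.29 (limma adjusted p = 0.0285), lost in 8 of the 16 fits that left out 1 library (controls 1 and 4, LPS 2 and 4, quercetin 1 to 3, quercetin plus LPS 1) and without the 5 libraries that stand apart (adjusted p = 0.0958). The miR-221 ratio changed by 1.08 ± 0.30 toward the 5p arm, and the miR-23a ratio by -0.99 ± 0.28, both short of the threshold (limma adjusted p = 0.0852). For miR-222 the ratio changed by 0.39 ± 0.25: both of its arms rose, and an unequal rise was not shown. Over the 150 hairpins 84 had arms that differed with LPS in the same direction (56%), and the threshold of the pooled test was passed by 5 less abundant and 1 more abundant arm.

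**Figure D2:**
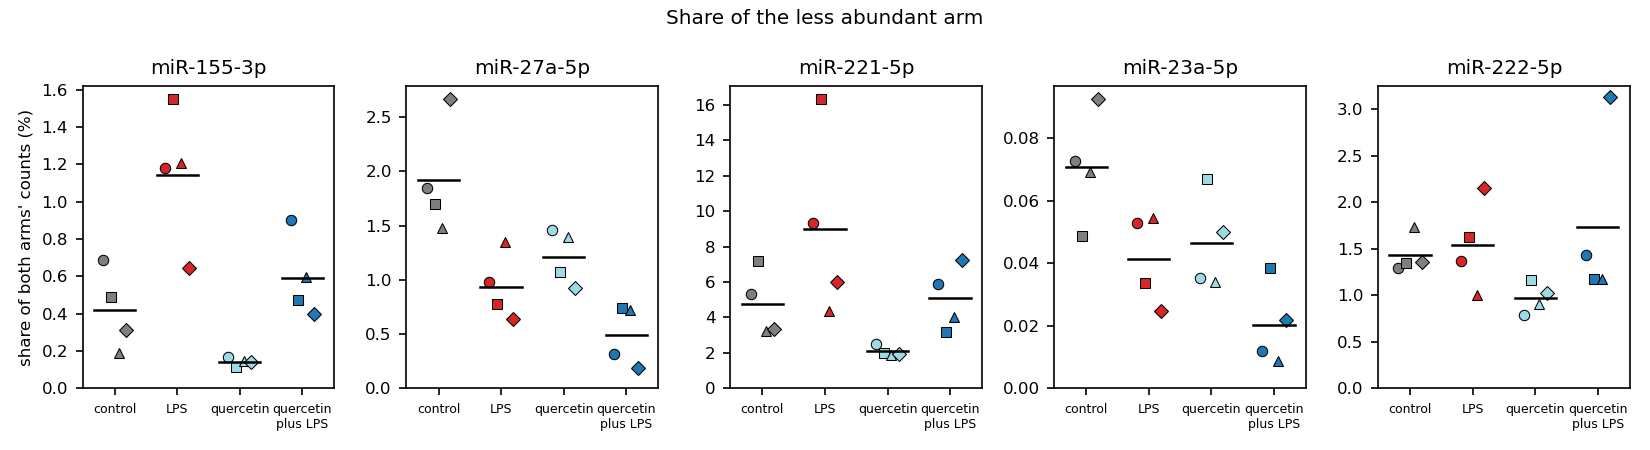
Share of the less abundant arm in the summed counts of both arms of its hairpin (%), for 5 hairpins in the 4 groups; a point is 1 library, with the mouse given by its shape (circle 1, square 2, triangle 3, diamond 4), and the line is the mean. The miR-27a-5p share is lower with LPS in both quercetin states without overlap, whereas the miR-222-5p share overlaps between control and LPS.

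Pooling was set against its parts. Without quercetin 3 of 568 miRNAs passed (0.528%; edgeR, 26 with an unadjusted p under 0.05): miR-155-3p, miR-222-5p and miR-129-5p. That count fell to 0 without control 1 or 4 or LPS 1 or 2, to 1 without control 2 or 3, and was 5 without quercetin plus LPS 4. With quercetin 2 passed (0.352%; 41 with an unadjusted p under 0.05), miR-155-3p and miR-222-5p; the count was 4 without quercetin plus LPS 2 and 7 without quercetin 4. The median standard error was 0.248 in the pooled fit against 0.346 and 0.354 in the single comparisons, that is 1.39 and 1.42 times larger. So 5 of the 7 pooled calls passed in neither state alone. Each of these 5 had the same sign in both, which selection by the pooled test favours. The differences of these 5, without and with quercetin, were 1.14 and 0.88 for miR-222-3p and 1.41 and 1.55 for miR-221-5p. They were -1.08 and -1.22 for miR-27a-5p, 0.84 and 0.70 for miR-455-5p, and -1.60 and -0.76 for miR-138-1-3p.

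**Figure D3:**
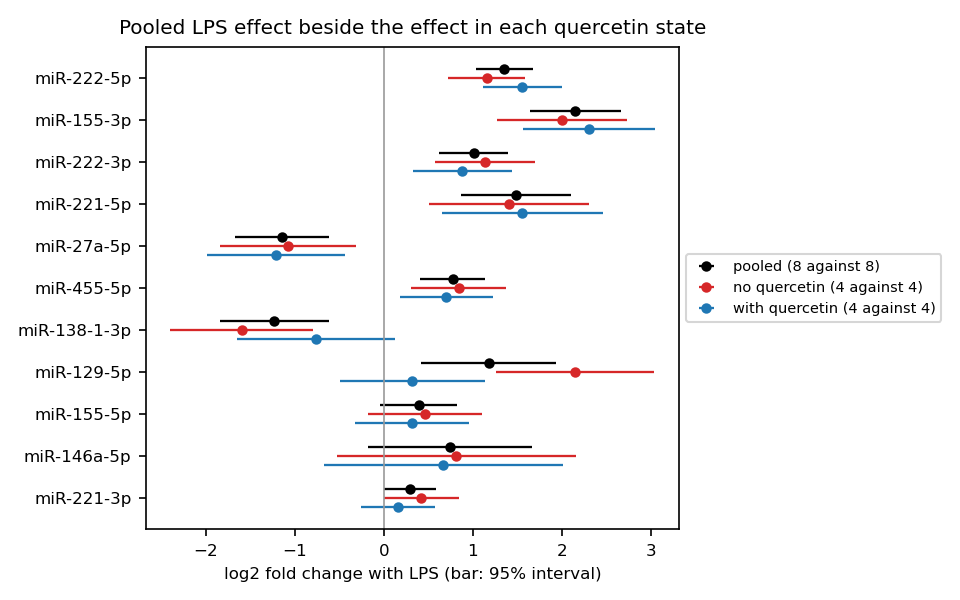
Log2 fold change with LPS and its 95% interval for the 7 miRNAs past the pooled test and 4 others, in the pooled fit (black, 8 libraries against 8), without quercetin (red) and with quercetin (blue, 4 against 4 each). The pooled intervals are the shortest, and that of miR-155-5p crosses 0.

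The LPS responses of the quercetin states were also set side by side over all miRNAs; these comparisons share mice but no library. Over all 568 miRNAs the log2 fold changes of LPS against control and of quercetin plus LPS against quercetin had a Pearson r of 0.07 and a Spearman rho of 0.01, and 261 (46.0%) had the same sign. Among the 146 with a mean of at least 100 CPM r was 0.12 and 69 (47.3%) had the same sign, much as over all. These correlations are across miRNAs, which are not independent replicates. The median absolute log2 change was 0.17 without and 0.29 with quercetin, below the median standard errors of 0.346 and 0.354, so at this precision a low correlation does not show that the responses differed.

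Groups of 4 that did not overlap were found for 18 miRNAs without quercetin (3.17%) and 21 with it (3.7%). In both states at once, 4 were higher with LPS (0.704%) and 2 lower (0.352%), and 0 went opposite ways. The higher were miR-155-3p, miR-222-5p, and miR-466d-5p with miR-466n-5p, which have identical counts in every library (mean 0.898 CPM) and count as 1 measurement; the lower were miR-27a-5p and miR-23a-5p. No miRNA kept all 8 LPS libraries apart from the other 8. All 8 mouse pairs moved one way for 11 miRNAs (1.94%), 8 higher (1.41%) and 3 lower (0.528%). For those past the pooled test their selection favours this, so it is not independent support. The 11 include miR-181a-1-3p, a passenger arm at 586 CPM that was lower in each pair by a small amount, -0.42 ± 0.16. It did not pass (edgeR adjusted p = 0.623). Also among the 11 is miR-1945, at 0.80 ± 0.34 (edgeR adjusted p = 0.723).

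**Figure D4:**
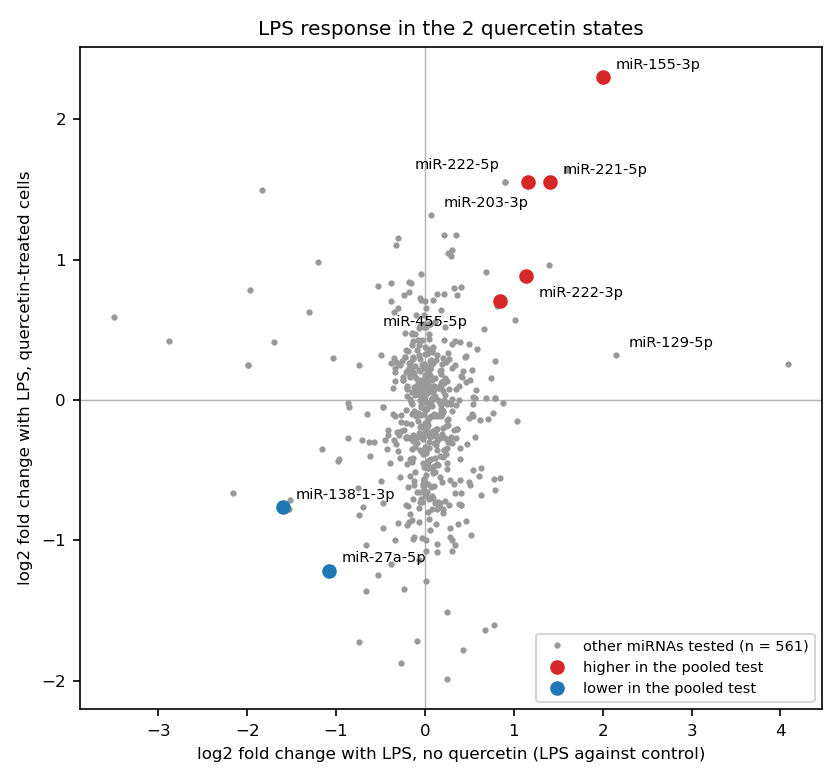
Log2 fold change with LPS of 568 miRNAs without quercetin (x axis) and with quercetin (y axis); red and blue points are the 7 past the pooled test. The 7 lie in the quadrants of like sign, which their selection favours, since the pooled test averages the differences on both axes. All miRNAs together show a Pearson r of 0.07.

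No LPS effect was shown to differ between the quercetin states. The interaction passed for 0 of 568 miRNAs in edgeR (0%; 26 with an unadjusted p under 0.05; smallest adjusted p 0.889), and for 0 with DESeq2 and with limma-voom. Its median standard error was 0.499, 2.01 times that of the pooled effect, so smaller differences between the states were not detectable. For miR-155-3p the interaction was 0.30 with a 95% interval from -0.70 to 1.30, and for miR-222-5p 0.40 with an interval from -0.21 to 1.01. The smallest interaction p-values belonged to miR-129-5p, miR-342-3p and miR-203-3p.

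miR-129-5p, a miRNA made from more than one locus, stood at 1.55, 1.13, 1.00 and 1.39 CPM in the controls and at 5.48, 6.14, 7.53 and 3.68 CPM with LPS. Quercetin libraries stood at 11.1, 3.45, 9.53 and 4.08 CPM, and with quercetin plus LPS at 8.85, 8.59, 13.02 and 4.57 CPM. It rose without quercetin by 2.15 ± 0.42 (edgeR adjusted p = 0.0179), from a control level below that of every other library; this call was lost without any 1 of the controls or of LPS 1 to 3, with an adjusted p of up to 0.136. With quercetin, where the groups overlapped, the difference was 0.32 ± 0.38. The pooled difference of 1.18 ± 0.36 did not pass (adjusted p = 0.237), and the interaction was -1.83 (unadjusted p = 0.00491, adjusted 0.889).

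miR-342-3p, an abundant miRNA of blood cells, ran from 1129 to 1854 CPM in the controls, 1320 to 2354 CPM with LPS, 637 to 1009 CPM with quercetin and 417 to 648 CPM with quercetin plus LPS. Its differences were 0.27 without and -0.75 with quercetin, of opposite sign, and the interaction of -1.02 ± 0.33 did not pass (edgeR adjusted p = 0.889). miR-203-3p, known from epithelium, ran from 48.6 to 56.4 CPM in the controls and 38.5 to 67.6 CPM with LPS, then 55.8 to 108 CPM with quercetin and 123 to 379 CPM with quercetin plus LPS. Its interaction was 1.25 ± 0.44, also short of the threshold (adjusted p = 0.889).

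A list of 28 arms described as induced by TLR ligands in myeloid cells had 26 tested members, of which 4 rose (the miR-155-3p, miR-221-5p, miR-222-5p and miR-222-3p above, against 0.88% of all miRNAs tested), 0 fell (against 0.352%) and 22 did not pass. The median difference was 0.21 and 19 of 26 were above 0, against a median of -0.02 over all miRNAs. The list was chosen with earlier results of these data known, so its counts are not independent support. The 4 arms that rose come from Mir155 and the neighbouring Mir221 and Mir222, not from 4 separate loci. miR-146a-5p, an NF-kB target that represses Traf6 and Irak1, stood at 1020, 3180, 1474 and 669 CPM in the controls and at 3972, 4825, 579 and 1780 CPM with LPS. Quercetin libraries stood at 1744, 638, 697 and 683 CPM, and with quercetin plus LPS at 1999, 606, 704 and 2674 CPM. The groups overlapped in both states, and LPS replicate 3 lay below every control. The difference was 0.74 ± 0.44, with a 95% interval from -0.18 to 1.66 that includes both no change and a rise like that of miR-222-3p.

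The passenger arm miR-146a-3p was too low to be tested, with at most 17 counts in a library. It had 4, 0, 1 and 0 counts in the controls, 17, 4, 12 and 10 with LPS, 0, 1, 0 and 0 with quercetin, and 3, 3, 6 and 5 with quercetin plus LPS. That is 60 counts in the 8 LPS libraries against 6 in the others, and control 1 (4) equals LPS replicate 2 (4). In a fit with no filter on low counts it passed (edgeR log2 difference 3.12 ± 0.61, adjusted p = 0.00625).

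None of the other tested arms of the list passed. miR-132-3p and miR-212-3p, made from a CREB-responsive locus, differed by -0.15 ± 0.17 and -0.18 ± 0.20. miR-9-5p, which targets Nfkb1, differed by 0.20 ± 0.17, and miR-21a-5p by 0.16 ± 0.14. miR-147-5p differed by 0.55 ± 0.27, miR-146b-5p by 0.45 ± 0.38, and miR-187-5p, at 0.785 CPM, by -0.78 ± 0.60. miR-125a-3p had a difference of 1.61 ± 0.52 at a mean of 1.44 CPM and did not pass (edgeR adjusted p = 0.300). The remaining members were miR-21a-3p (0.35), miR-125a-5p (0.22), miR-99b-3p (0.56), miR-99b-5p (-0.04), let-7e-5p (0.05), miR-9-3p (0.11), miR-147-3p (0.05), miR-132-5p (-0.09), miR-212-5p (0.07), miR-146b-3p (-0.09) and miR-187-3p (-0.35).

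**Figure D5:**
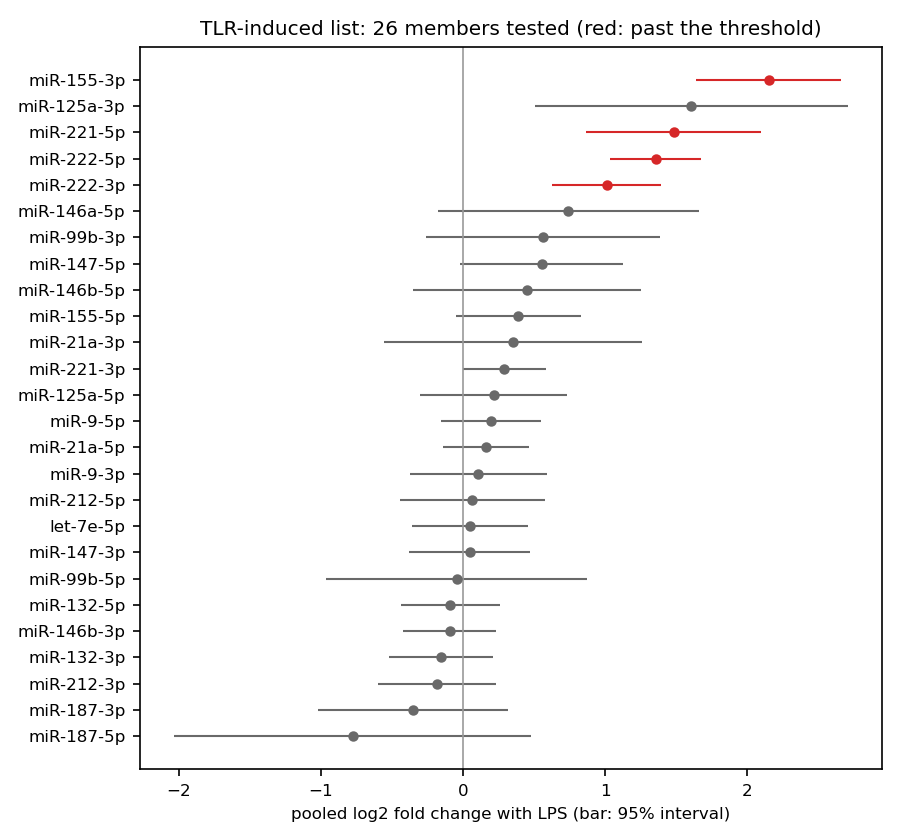
Pooled log2 fold change with LPS and its 95% interval for the 26 tested members of the list of TLR-induced miRNAs; red marks the 4 past the threshold. miR-155-3p, at 2.15, is the highest, and the intervals of most others cross 0.

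A second list, 8 miRNAs described as falling after TLR4 stimulation, had 0 called members and a median of 0.02; let-7i-5p differed by 0.27 ± 0.19 and miR-98-5p by 0.26 ± 0.21. No member passed in the let-7 family (9 tested, median 0.08), the miR-17-92 clusters (20, -0.01), the miR-15/16 family (11, -0.02), the miR-29 family (7, 0.02) and the miR-30 family (11, 0.04). The same held for the miR-181 family (8, -0.20), the p53 and hypoxia list (8, -0.13), the Dlk1-Dio3 cluster (12, 0.00) and the Sfmbt2 cluster (44, 0.07). None of the 5 most abundant miRNAs passed: miR-22-3p differed by -0.08 ± 0.10, miR-21a-5p by 0.16 ± 0.14, miR-181a-5p by -0.11 ± 0.14, miR-27b-3p by 0.12 ± 0.16 and miR-146b-5p by 0.45 ± 0.38.

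Each mouse pair above sets libraries of equal number side by side; the deviations of control 3 and control 4 from their group did not follow the other libraries of their number (r from -0.47 to -0.17 and from -0.32 to -0.15). Library totals ran from 6454535 to 13943904 counts and did not differ by LPS beyond their spread (mean difference 654052, exact permutation within quercetin states, two-sided, p = 0.350). Marker sums are in CPM without TMM scaling. Every listed member enters its sum, so where 2 members have identical counts the same reads enter 2 times. This holds for miR-486a-5p with miR-486b-5p (erythroid, mean 1820 CPM each after TMM scaling). It also holds for miR-199a-3p with miR-199b-3p (stromal, endothelial and epithelial). The summed level of 6 myeloid markers had a median of 29320 CPM with LPS (21768 to 34729) and 24598 CPM without (18451 to 39404). The 6 erythroid markers had medians of 2105 (746 to 6282) and 3605 CPM (713 to 13859), the 2 lymphocyte markers 587 (281 to 840) and 721 CPM (403 to 941), and the 14 stromal, endothelial and epithelial markers 325 (233 to 5345) and 366 CPM (308 to 1537). The 4 measured markers foreign to marrow had medians of 9.24 (5.45 to 24.5) and 11.9 CPM (3.58 to 23.4). These pooled ranges overlap, no tested marker passed the pooled test and no measured one was at 0 in every library. The pooled medians mix quercetin states that differ. Erythroid medians were 1339 CPM in the controls and 1432 CPM with LPS, then 6162 CPM with quercetin and 5710 CPM with quercetin plus LPS. Medians of the foreign markers were 5.98 and 6.79 CPM, then 18.3 and 21.6 CPM, in the same order of groups. Within the states the stromal, endothelial and epithelial sum was lower with LPS without quercetin (308 to 659 CPM in the controls, 233 to 253 CPM with LPS, no overlap) and overlapped with quercetin (337 to 1537 CPM, and 398 to 5345 CPM with LPS). The median difference of its 13 tested members was -1.20 without and 0.38 with quercetin, none past the threshold. The markers' part in the results was not tested. Control 3, LPS 4, quercetin 4 and quercetin plus LPS 1 and 4 lay high within their groups on the second principal component (22.0% of variance), 3 of them with LPS and 2 without. LPS 4, quercetin 4 and quercetin plus LPS 4 are from mouse 4, the mouse of 7 weeks. Leaving out these 5 libraries was not planned in advance. Without these 5 libraries the differences were 1.85 for miR-155-3p, 1.26 for miR-222-5p, 1.14 for miR-222-3p, -0.95 for miR-27a-5p and 0.87 for miR-455-5p, each past the threshold. miR-138-1-3p differed by -1.19 with an edgeR adjusted p of 0.227.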

How the data were processed

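Small RNA was sequenced in 16 libraries (4 groups of 4). The deposited values are read counts per mature miRNA, not normalised; cutadapt and the build mm9 are named in the submitters' processing notes, and aligner, versions and counting rule are not given in the sources used here. RNA was prepared with miRNeasy and TruSeq Small RNA kits, per the labels' protocols. Of 1381 rows 1 with text among its counts and 4 whose counts look exchanged between neighbouring rows (miR-6993-3p, miR-1839-5p, miR-700-3p, miR-654-3p) were left out, and 4 names on 2 rows were summed, which left 1372 names. No column was left unused. Identical counts in every library were found for 15 sets (32 names) whose counts sum to over 200 (lower rows not listed), so reads of such copies cannot be told apart.

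Counts were tested in R 4.3.3 with edgeR 4.0.16, after filtering by filterByExpr within groups (568 kept) and TMM scaling, by a quasi-likelihood fit of quercetin plus LPS terms to all 16 libraries. A fit with a coefficient per group gave the single comparisons and the interaction. Adjustment was Benjamini-Hochberg over all tested, with a threshold of 0.05; SE is the log2 fold change over the square root of F. Arm ratios used limma 3.58.1 with 0.5 added to each count. Scripts were tested on simulated data. Intervals are 95%.

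Named miRNAs were TLR-response arms, those past the threshold or with the smallest p-values, up to 3 per list, the top interaction p-values and the 5 most abundant; list members were named to account for lists. The members and lists were chosen with earlier results of these data known. Mature sequences came from RefSeq and matched by name.

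Equal sample numbers in the labels were read as the same animal, because the design text speaks of 4 mice. Deviations from group means correlated at a mean r of 0.14 (-0.47 to 0.65) over 24 same-mouse pairs and -0.04 over 72 others; for control 3 and control 4 all 3 same-mouse values lay below 0, and the labels were kept. Pairing does not enter the main test. Alternatives covered scaling, filters, DESeq2 1.42.0, limma-voom, the mouse block, the covariate and left-out libraries. No libraries of 1 group were near duplicates by chi-square. P-values measure the spread between these 16 libraries, from 4 mice.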

Additional observations from a re-analysis of the deposited data

Results flagged for a closer look

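Of 52 sets of 4 libraries checked for a single value far from the others, 2 were found, and chance alone gives about 1 in 20. miR-27a-5p in LPS replicate 4 stood at 29.3 CPM, against 43.1 to 45.9 CPM in the other LPS libraries; it lies on the side of the fall with LPS, and without that library the pooled difference was -1.06 with an edgeR adjusted p of 0.0992. miR-146a-5p in quercetin replicate 1 stood at 1744 CPM, against 638 to 697 CPM in the other quercetin libraries.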

How the results depend on the processing

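The pooled test gave 5 to 8 calls with any 1 library left out; miR-155-3p, miR-222-5p, miR-222-3p, miR-221-5p and miR-455-5p passed in 16 of 16 such fits. The counts include miRNAs outside the 7. miR-7086-5p, below the filter in the main fit, passed without control 3 or 4, LPS 1, any 1 quercetin library or any 1 quercetin plus LPS library. The filter asks for fewer libraries in these fits, and miR-7086-5p met it only through the LPS group, where it is high. Its counts there were 13, 24, 20 and 20, against 0 to 5 in the libraries of the other groups. These calls are therefore not independent support. miR-129-5p passed without quercetin 1 or quercetin plus LPS 4. With a whole mouse left out the pooled test gave 3 to 4 calls, with miR-7086-5p among them without mouse 1. Of the 7 only miR-155-3p and miR-222-5p passed in every case. Without quercetin the count ran from 0 to 5 with 1 library left out, with quercetin from 2 to 7, for arm ratios from 1 to 3, and for the interaction it stayed at 0. The replicate block (mouse) gave 6 pooled calls, losing miR-138-1-3p, and changed no other pooled call. Scaling by library size gave 3 pooled calls (miR-155-3p, miR-222-5p and miR-221-5p) and 1 without quercetin, where it moved the median of all miRNAs from 0.02 to -0.13, and that of the interaction from -0.10 to 0.05. With no quercetin covariate 0 miRNAs passed (19 with an unadjusted p under 0.05 in edgeR); miR-155-3p then had an adjusted p of 0.0642. By construction that fit counts the quercetin difference as spread. DESeq2 gave 10 pooled calls, adding miR-466d-5p, miR-466n-5p and miR-129-5p, with 6 without and 4 with quercetin. With all rows as deposited the pooled test gave 8 calls, adding 1 of the 2 miR-363-3p rows (-9.07), over which the counts of this miRNA stand split. The interaction then gave 1 call and the quercetin state 4. That setting also holds the 4 rows left out elsewhere, and the miRNAs behind these added calls are not listed here. In these and the other cases the cause was not tested. With no filter on low counts 7 passed, adding miR-146a-3p and miR-7086-5p and losing miR-455-5p and miR-138-1-3p. Interactions near 0 changed sign: miR-27a-5p to 0.0749 and miR-455-5p to 0.0199 with library size scaling, and miR-27a-5p to 0.00635 with no filter and 0.0264 with a minimum of 10 CPM. With 1 library left out they ran from -0.29 to 0.16 for miR-222-3p, -0.31 to 0.33 for miR-27a-5p and -0.16 to 0.21 for miR-455-5p. Depth limits the low arms: miR-138-1-3p had as few as 3 counts in a library.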

Other observations

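Below the filter on low counts, miR-7086-5p had 86 counts in the 8 LPS libraries and 17 in the 8 others: 4, 2, 4 and 5 in the controls, 13, 24, 20 and 20 with LPS, 0, 1, 0 and 1 with quercetin, and 0, 2, 3 and 4 with quercetin plus LPS. Its groups were apart without quercetin and overlapped with it. miR-129-2-3p, an arm of one of the hairpins that give miR-129-5p, was higher with LPS in 7 of 8 mouse pairs (1.16 ± 0.42 at 2.26 CPM; edgeR adjusted p = 0.467). Among arms with small p-values that did not pass the pooled test, miR-411-5p of the Dlk1-Dio3 cluster differed by 0.57 ± 0.20 (higher in 7 of 8 pairs) and miR-7676-5p by -0.82 ± 0.26 (lower in 7 of 8 pairs).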
